A study of Homo sapiens with 4 samples.

Results

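Oxidative phosphorylation genes encode the subunits of the 4 respiratory complexes and of the ATP synthase. They were chosen by name from the deposited gene table: symbols of the NDUFA, NDUFB, NDUFC, NDUFS and NDUFV series, the UQCR, COX4I and COX5 to COX8 series, the ATP5F1, ATP5M and ATP5P series, the mitochondrially encoded subunits, SDHA to SDHD and CYC1. Those prefixes and names matched 303 symbols, of which 14 assembly factors and 185 pseudogenes were dropped. Of the 110 candidates left, 16 had fewer than 100 counts over all libraries, so that 94 members remained among 61860 genes. The nuclear genome encodes 80 of them: 37 in complex I, 4 in complex II, 9 in complex III, 13 in complex IV (NDUFA4 and its paralog NDUFA4L2 are placed here) and 17 in complex V, the ATP synthase. The mitochondrial genome encodes 13, and the remaining 1 is NDUFA6-DT, a divergent locus beside NDUFA6 that encodes no subunit. All 94 passed the filter on low counts and were tested.

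RNA was sequenced from NK-92, an established human natural killer (NK) cell line that depends on interleukin 2 (IL-2). The unedited wild-type line (WT) was compared with a line called ΔOGT-ISS, from which CRISPR-Cas9 removed the intronic splicing silencer of OGT, the gene of the enzyme that adds the sugar O-GlcNAc to proteins within the cell. Each line contributed 1 library with IL-2 given 48 h before extraction and 1 with IL-2 given 24 h before it, so 4 libraries fill the 4 combinations. The titles mention IL-2 for the 24 h libraries only, while the labels give it to all 4, and the times here follow the labels. There is 1 edited line, the labels do not say whether it is a clone, and nothing states that libraries came from separate cultures. P-values therefore describe how far these 4 libraries spread, which may be technical variation.

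Complexes I and II pass electrons from NADH and succinate to ubiquinone, complex III passes them on to cytochrome c, and complex IV reduces oxygen. Complexes I, III and IV pump protons across the inner mitochondrial membrane, and the ATP synthase uses the gradient to make ATP. All of these except complex II combine nuclear subunits with subunits made from the mitochondrial genome, whose genes are transcribed as long polycistronic precursors, and IL-2 signalling is known to raise respiration in NK cells.

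The mitochondrial genes are so tightly packed that some share bases. On GRCh38, with GENCODE release 29, MT-ATP8 lay at chrM:8366-8572 and MT-ATP6 at chrM:8527-9207, both on the plus strand, and 46 bases belonged to both. That overlap, at chrM:8527-8572, is shown because reads within it cannot be assigned to MT-ATP8 or MT-ATP6 alone, and the capitals mark the start codon of MT-ATP6.

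MT-ATP8 and MT-ATP6 shared bases: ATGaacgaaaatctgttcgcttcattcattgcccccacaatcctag

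MT-ND4L and MT-ND4 shared 7 bases in the same way. MT-ND6, at chrM:14149-14673, is the only mitochondrially encoded member on the minus strand.

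Nuclear subunit genes are scattered, here over 22 nuclear chromosomes, and are known targets of the factors NRF1, the ETS family (GABP) and YY1. RefSeq promoters of GRCh38.p14, from 250 bases before to 50 after the gene start, matched 65 of the 80 nuclear members. The NRF1 letters GCATGCGC, searched on both strands, stood in 13 of the 65 (20.0%) and in 3.27% of all 27305 promoters of that length. The ETS letters CCGGAAGT stood in 10 (15.4%, against 4.43%), the YY1 letters AAGATGGCG in 8 (12.3%, against 1.85%) and the letters CCAAT in 21 (32.3%, against 35.7%). The NRF1 letters overlap their own reverse complement where GCGCATGCGC occurs, and none of the 4 motifs contains another. A match is a description of the letters and not a binding site.

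Windows of 60 bases that did not touch an annotated exon are shown for promoters with the NRF1 or ETS letters, 1 window per promoter, printed on the strand of the gene, with the letters in capitals (ATP5PD has them on the other strand). COX6A1 holds the NRF1 letters at a second place, and the window at the first is shown. Their positions are chr2:97645901-97645960 (plus) for COX5B, chr12:120437870-120437929 (plus) for COX6A1, chr3:120596154-120596213 (plus) for NDUFB4, chr1:17054198-17054257 (minus) for SDHB, chr19:1605545-1605604 (minus) for UQCR11 and chr17:75047037-75047096 (minus) for ATP5PD.
COX5B, NRF1 letters: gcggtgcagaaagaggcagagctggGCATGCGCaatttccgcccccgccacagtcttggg
COX6A1, NRF1 letters: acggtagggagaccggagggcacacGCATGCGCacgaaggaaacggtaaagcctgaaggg
NDUFB4, NRF1 letters: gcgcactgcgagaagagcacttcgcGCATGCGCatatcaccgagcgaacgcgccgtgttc
SDHB, NRF1 letters: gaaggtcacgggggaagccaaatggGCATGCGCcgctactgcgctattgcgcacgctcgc
UQCR11, ETS letters: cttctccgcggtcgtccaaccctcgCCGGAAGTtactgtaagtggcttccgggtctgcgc
ATP5PD, ETS letters: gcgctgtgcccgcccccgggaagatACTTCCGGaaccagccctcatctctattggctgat

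Genes with these letters differed in what they did in these libraries. SDHB, UQCR11 and ATP5PD fell between 48 h and 24 h of IL-2, whereas COX5B, COX6A1 and NDUFB4 did not pass that test. Over all matched promoters, the NRF1 letters stood in 2 of 6 members that were higher at 24 h, 5 of 27 that were lower and 6 of 32 that did not pass.

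Library totals were 11305599 (ΔOGT-ISS) and 10889986 (WT) counts for the 48 h libraries, while the 24 h libraries held 28576566 and 24809269. The 80 nuclear members took 0.629% to 0.982% of the counts of a library and the 13 mitochondrially encoded members 0.724% to 0.967%. The 24 h libraries differed from the 48 h ones in more than IL-2 time: mitochondrial ribosomal RNA made up 0.358% (ΔOGT-ISS) and 0.187% (WT) of counts in the 48 h libraries but 0.0162% and 0.0174% in the 24 h libraries, and the cytoplasmic RNA RN7SL1 made up 0.394% and 0.425% against 2.76% and 4.39%. OGT, the edited gene, stood at 399, 446, 384 and 449 CPM (counts scaled to library size, TMM-normalized) in ΔOGT-ISS 48 h, WT 48 h, ΔOGT-ISS 24 h and WT 24 h, the order used for every list of 4 values below. All 10 NK cell markers were detected in every library, but not at equal levels. In the edgeR line fit described below, 9 of the 10 were lower in ΔOGT-ISS. TYROBP, at 1.31, 6.43, 3.28 and 26.9 CPM, passed the test (log2 difference -2.74, edgeR adjusted p 0.0242), where 0.463% of all tested genes did. T cell markers summed to 195 to 337 CPM, mostly CD3E, with CD3D at most 0.568. B cell markers summed to 62.2, 80.2, 81.5 and 53.9 CPM, mostly PAX5, and 7 myeloid markers to 604, 819, 43.5 and 307 CPM, mostly S100A9.

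Levels between genes were compared per transcript length, in the FPKM deposited by the authors (mean ± SD over the 4 libraries, which differ in line and time). The ranks depend on the deposited length. UQCRB, with a listed length of 8459 bases, had a mean of 363 CPM but 42.6 FPKM. UQCRH, with 537 bases, had 151 CPM and 280 FPKM. By mean, the highest nuclear member was ATP5F1B, the catalytic beta subunit of the ATP synthase, at 396 ± 31.0 FPKM. COX6C led complex IV at 303 ± 158 FPKM, UQCRH led complex III at 280 ± 60.2, NDUFS5 led complex I at 211 ± 105, and SDHB, the iron-sulfur subunit, led complex II at 117 ± 38.1. ATP5F1B stood above UQCRH, and UQCRH above NDUFS5, in each library. COX6C stood above NDUFS5 in each library but above ATP5F1B and UQCRH at 48 h only, so its place depended on IL-2 time. MT-CO1, the catalytic core of complex IV, was the highest mitochondrially encoded member at 1573 ± 354 FPKM, and MT-CYB was the lowest at 291 ± 44.4.

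Subunits of 1 complex were far from equal in deposited FPKM, which depends on the listed transcript length. For NDUFA9 that length was 8356 bases, where the median of the nuclear members was 783.5. NDUFA7, NDUFA9 and NDUFV2 of complex I were listed at 1.89 ± 1.83, 2.21 ± 0.350 and 2.94 ± 0.282 FPKM, and SDHA, the catalytic subunit of complex II, at 7.83 ± 1.88. In GENCODE transcripts, 27.0% of the 50-base words of NDUFV2 and 30.8% of those of NDUFA7 also occurred in other genes. Across all members, 10 shared over 20% of their words and 24 shared none.

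Where a subunit has tissue-specific isoforms, the ubiquitous form carried nearly all counts. COX4I1, COX6A1, COX6B1, COX7A2 and COX7B had mean levels of 217, 142, 258, 240 and 52.2 FPKM. The heart and muscle, testis or lung forms COX6A2, COX7A1, COX6B2, COX4I2, COX7B2 and COX8C had 78, 49, 34, 2, 2 and 0 counts in all 4 libraries together and fell under the minimum. NDUFA4 stood at 74.5, 123, 52.3 and 80.9 CPM and NDUFA4L2, its hypoxia-linked paralog, at 1.84, 1.42, 2.59 and 2.44 CPM. The 3 genes of the ATP synthase c subunit, whose mature proteins are identical, were all present, with ATP5MC1 at 108 ± 29.8, ATP5MC3 at 66.5 ± 14.4 and ATP5MC2 at 40.8 ± 20.0 FPKM. The members just above the minimum were NDUFA7 with 111 counts and NDUFA4L2 with 171, and the candidates just below were COX6A2 with 78 and NDUFV2-AS1 with 70.

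Between the lines, which is the question the design states, no oxidative phosphorylation gene passed the test (edgeR quasi-likelihood, with line and IL-2 time as additive terms, Benjamini-Hochberg adjusted p under 0.05). The count was 0 of 94, where 0.463% of the 17492 genes tested passed, 26 of them higher (0.149%) and 55 lower (0.314%) in ΔOGT-ISS. At an unadjusted p under 0.05 there were 11 members, where 9.08% of all tested genes were under it. DESeq2 called 3 (ATP5F1C, COX5A and MT-CO2, all lower in ΔOGT-ISS), where it called 1.73% of all genes, and limma on log2(FPKM + 1) called 0 of the members and 0 of all genes. The design leaves 1 residual degree of freedom, in which a line effect that depended on time would also be counted.

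Nuclear members were mostly lower in ΔOGT-ISS at 48 h and were not at 24 h. Their median log2 line ratio was -0.36 at 48 h, with 73 of 80 below 0, and 0.04 at 24 h, with 29 of 80 below 0. All 12078 protein-coding genes tested had medians of 0.01 and 0.00, with 5965 and 5994 below 0. These ratios rest on 1 library per line and time and have no test. In the additive fit the nuclear median was -0.14, with 67 of 80 negative, and it was 0.067 when the WT 48 h library was left out (the fit then lacks the time term).

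The pattern ran through every complex. Summed complex IV transcripts stood at 1498, 2138, 1090 and 1130 CPM, so the WT 48 h library was highest and the lines were nearly level at 24 h. WT at 48 h was also highest for complex V, at 2638, 3477, 2533 and 2320 CPM, where 17 of 17 genes were lower in ΔOGT-ISS at 48 h. Complex I stood at 2087, 2591, 1783 and 1729 CPM, complex III at 1235, 1607, 999 and 933, and complex II, with the smallest gap, at 277, 300.3, 248 and 225. The WT 48 h library held the highest value for 56 of the 80 nuclear genes and for 26.9% of all tested genes. Bulk RNA cannot tell apart fewer cells with the transcripts and less RNA per cell.

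**Figure D1:**
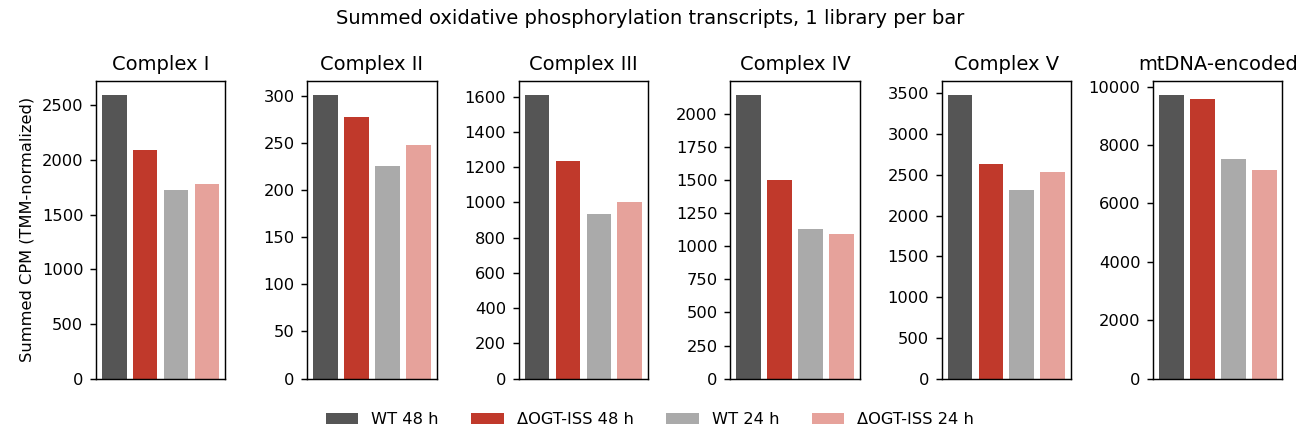
Summed TMM-normalized CPM of the members of each complex (nuclear subunits) and of the 13 mitochondrially encoded genes, 1 bar per library, with its own y axis from 0 in each panel. WT at 48 h is the highest bar in all 5 nuclear panels, and the mitochondrially encoded sum (9577, 9704, 7134 and 7517 CPM) differs little between lines.

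**Figure D2:**
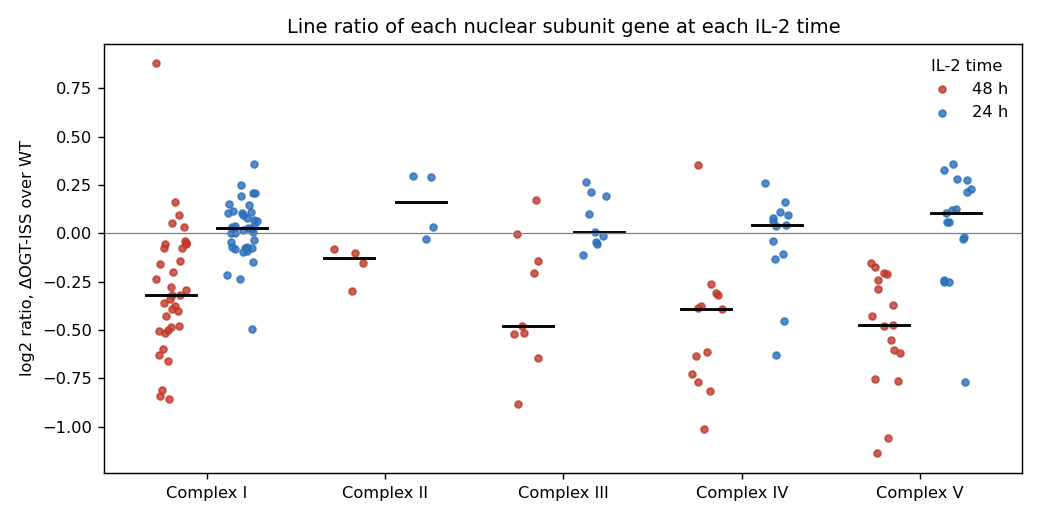
Log2 ratio of ΔOGT-ISS over WT for each of the 80 nuclear subunit genes, by complex, at 48 h (red) and 24 h (blue), from 1 library per line and time; the black bars are medians. At 48 h 73 of 80 genes lie below 0, and at 24 h 29 do.

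ATP5F1C, the gamma subunit that forms the rotating stalk of the ATP synthase, had the largest line difference of any member. It stood at 47.7, 105, 45.9 and 78.2 CPM, lower in ΔOGT-ISS at each time, so the lines did not overlap. Its log2 difference was -0.95 (SE 0.17), a fold of 0.517, with an edgeR adjusted p of 0.077. The single-time ratios, with exact binomial 95% intervals that cover counting error only, were 0.454 (0.409 to 0.503) for the 48 h libraries and 0.587 (0.547 to 0.630) for the 24 h libraries. The gene lies at chr10:7788129-7807815 on the plus strand, and the median log2 line ratio of the 40 nearest tested protein-coding genes was -0.42 at 48 h and -0.30 at 24 h. With those regional medians removed its difference was -0.59 (edgeR adjusted p 0.410). Leaving out any library moved the difference of ATP5F1C by less than 1.5 times (-1.14 to -0.79). It was the only 1 of the 11 members with an unadjusted p under 0.05 to move so little. Fits with a library left out lack the time term, so a gene's IL-2 time difference enters them. That difference was small for ATP5F1C (-0.24), so the range does not show that its line difference was steadier. NDUFA4 and NDUFB2 had closer single-time ratios, at 0.604 and 0.646 and at 0.704 and 0.709 for 48 h and 24 h.

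COX5A, a nuclear subunit bound to the catalytic core of complex IV, stood at 150, 302, 97.1 and 133 CPM. It was lower in ΔOGT-ISS at each time, although the ΔOGT-ISS 48 h value lay above the WT 24 h value. The log2 difference was -0.73 (SE 0.18, edgeR adjusted p 0.179). Its neighbours on chromosome 15 had medians of -0.63 at both times, and with these removed the difference was -0.10 (edgeR adjusted p 0.956). NDUFA4, a complex IV subunit first assigned to complex I, was 0.68 lower on the log2 scale (-0.68, SE 0.16, edgeR adjusted p 0.151). Its neighbours had 0.03 and -0.06, and removing these left -0.66. NDUFB2, an accessory subunit of complex I, stood at 57.9, 82.3, 34.9 and 49.2 CPM (-0.50, SE 0.16, edgeR adjusted p 0.337), and its difference was -0.21 with the regional medians of -0.29 at each time removed. Leaving out WT 48 h gave -0.16 for COX5A, -0.41 for NDUFA4 and -0.14 for NDUFB2. Leaving out WT 24 h gave -1.28, -0.95 and -0.81. Without a time term in these fits, the time difference of each gene enters the values. Removing the regional medians barely moved NDUFA4 but lowered the gap of COX5A and NDUFB2 by more than 1.5 times.

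The remaining extremes of each complex were smaller. UQCR10 of complex III had -0.46 and CYC1, which carries the cytochrome c1 haem, 0.14. In complex II the values ran from -0.06 (SDHC) to 0.07 (SDHD). NDUFA7 had 0.27, NDUFA4L2 0.21 and ATP5MC1 0.04, the highest of complexes I, IV and V, and none of these passed the test. Core subunits NDUFS1 and NDUFV1 of complex I had 0.10 and -0.13, UQCRFS1 and UQCRC1 of complex III -0.26 and -0.10, and ATP5F1A and ATP5F1B of the ATP synthase -0.05 and -0.02.

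The mitochondrially encoded members split by gene at 48 h, with complex I genes higher and some complex IV genes lower in ΔOGT-ISS, and the split was smaller at 24 h. MT-ND2 stood at 602, 304, 456 and 424 CPM, a ratio of 1.98 (1.90 to 2.06) that was 1.07 (1.05 to 1.10) at 24 h. MT-ND1 stood at 557, 306, 299 and 256 CPM, a ratio of 1.82 (1.74 to 1.90) and then 1.17 (1.13 to 1.21). These encode membrane subunits of complex I, and both had their ΔOGT-ISS 48 h library well above the other 3. MT-ND4, MT-ND5 and MT-ND6 had ratios of 1.65, 1.58 and 1.71 at 48 h and of 1.05, 1.14 and 1.19 at 24 h. MT-ND4L had 1.35 and 0.988. MT-ND3, the remaining complex I gene, went the other way at 48 h, with 199 against 304 CPM, and stood at 259 against 252 at 24 h.

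For complex IV, MT-CO3 stood at 927, 1846, 680 and 796 CPM, a ratio of 0.502 (0.490 to 0.514) at 48 h. MT-CO2, which takes electrons from cytochrome c, stood at 523, 984, 134 and 191 CPM, a ratio of 0.532 (0.515 to 0.549). For both genes the WT 48 h library was the highest by a wide margin. MT-CO1 differed less, at 2771, 3054, 1790 and 2136 CPM. MT-ATP6 had ratios of 0.809 and 0.794, MT-ATP8 1.01 and 0.764, and MT-CYB, the only mitochondrially encoded subunit of complex III, 1.04 and 0.851.

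None of these passed the test over both times. MT-CO2 had a log2 difference of -0.71 (edgeR adjusted p 0.167) and MT-CO3 -0.61 (0.411), while MT-ND1 and MT-ND2 each had 0.54 (0.417 and 0.525). Without WT 48 h, MT-CO2 had 0.71, MT-CO3 -0.04 and MT-ND2 0.27, and without ΔOGT-ISS 48 h MT-ND1 had 0.086. The time term is missing from these fits, so time differences enter the values. MT-CO2 itself was lower in ΔOGT-ISS at 24 h too, with a ratio of 0.699. The median of the 13 was -0.09. Other mitochondrial transcripts moved beside them at 48 h: MT-RNR1 had 11404 counts in ΔOGT-ISS and 5118 in WT, and MT-RNR2 had 29059 and 15263. Nuclear copies of mitochondrial DNA followed their originals, with MTND2P28 at 439 and 166 counts and MTCO2P12 at 48 and 135. Of the 50-base words of MT-ND2, 43.6% also occur in MTND2P28, and how reads that match both were counted is not given in the sources used here. The part of these features in the split was not tested.

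**Figure D3:**
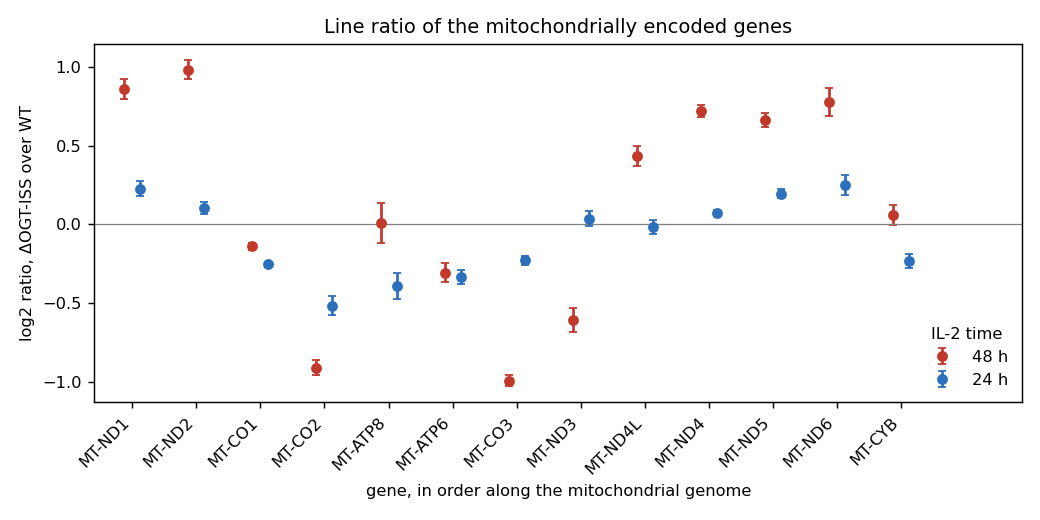
Log2 ratio of ΔOGT-ISS over WT for the 13 mitochondrially encoded genes in genome order at 48 h (red) and 24 h (blue), 1 library per line and time, with exact 95% counting intervals. At 48 h MT-ND2 reaches 0.98 and MT-CO3 -0.99, and the 24 h values lie closer to 0 for both.

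Between 48 h and 24 h of IL-2, 44 of 94 members passed the same edgeR test, where 25.9% of all tested genes did. The direction was mostly down: 36 were lower at 24 h (10.9% of all tested genes were) and 8 were higher (15% were). The nuclear members had 33 lower and 8 higher, with a median log2 difference of -0.39, against 0.07 over all tested genes. The mitochondrially encoded members had 3 lower and 0 higher, with a median of -0.37. For 46 of 80 nuclear genes both 24 h libraries lay below both 48 h libraries, and for 18 both lay above. Over all tested genes 30.1% lay below and 34.8% above in this way. The median nuclear ratio of 24 h to 48 h was -0.65 (log2) in WT and -0.20 in ΔOGT-ISS.

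Depth, RN7SL1, mitochondrial ribosomal RNA and the myeloid marker S100A9 (584, 779, 38.9 and 290.0 CPM) all differed with IL-2 time too, and their part in these differences was not tested. Leaving out each library in turn gave nuclear median log2 time differences from -0.65 (without ΔOGT-ISS 48 h) to -0.10 (without WT 48 h). Medians over all tested genes in these fits ran from -0.01 (without WT 24 h) to 0.14 (without ΔOGT-ISS 48 h). Those fits hold 3 libraries and no term for line. With all 4 libraries and both terms, 24 members passed under each of 11 settings, 21 of them lower and 3 higher. The share of all tested genes that did so was not counted. Some settings were close to the reported fit: library size only, TMM without chromosome M and thinning each called the same 44 members.

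In complex I, 13 of 37 nuclear genes fell and 3 rose. The largest falls were in accessory subunits. NDUFB1 stood at 71.3, 88.9, 28.3 and 27.7 CPM, with both 24 h values far below both 48 h values (-1.51, SE 0.18, edgeR adjusted p 0.00134). NDUFC2 fell by 1.32 on the log2 scale, NDUFS5 by 1.28, NDUFAB1 (the mitochondrial acyl carrier protein) by 1.26 and NDUFS4 by 1.13. Of the catalytic core, NDUFS1, with 213, 205, 205 and 185 CPM, and NDUFV1, which binds NADH, with 120, 156, 175 and 162 CPM, did not pass.

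Rises were few and included the largest values of the whole set. NDUFA13, also called GRIM-19, stood at 1.23, 1.80, 10.3 and 9.99 CPM, with both 24 h libraries above both 48 h libraries (2.76, SE 0.40, edgeR adjusted p 0.00276). It rests on 14 and 19 counts at 48 h. NDUFS7, an iron-sulfur core subunit, rose from 16.8 and 15.0 CPM to 46.6 and 44.5 (1.52, SE 0.19, edgeR adjusted p 0.00159). NDUFA7 had 3 counts and 1 count at 48 h and 56 and 51 at 24 h (edgeR adjusted p 0.0305), and its ratio of 24 h to 48 h was 21.9 (3.76 to 882) in WT and 7.35 (2.39 to 36.7) in ΔOGT-ISS. DESeq2 did not call NDUFA7 (adjusted p 0.0546).

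In complex II, 1 of 4 genes passed, a share of 25% that is near the 25.9% of all tested genes. SDHB fell from 150 and 158 CPM to 86.3 and 84.4 (-0.85, SE 0.16, edgeR adjusted p 0.00678), with no overlap between times. SDHA stood at 15.7, 19.3, 27.2 and 22.2 CPM (0.50, edgeR adjusted p 0.149), and SDHC and SDHD, the membrane anchors, had 0.09 and 0.11.

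In complex III, 3 of 9 genes fell and 1 rose. The falls were in small subunits: UQCRQ, at 158, 181, 62.1 and 54.1 CPM (-1.54, SE 0.17, edgeR adjusted p 0.00113), UQCR11 (-1.31) and UQCRB (-1.31). CYC1 rose, from 58.4 and 51.8 to 86.6 and 80.7 CPM (0.60, SE 0.16, edgeR adjusted p 0.0274). The Rieske iron-sulfur subunit UQCRFS1 (-0.33), UQCRH (-0.43) and the core protein UQCRC1 (0.20) did not pass.

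Complex IV had 8 of 13 nuclear genes lower and 1 higher. COX6C stood at 285, 369.8, 122 and 131 CPM (-1.36, SE 0.16, edgeR adjusted p 0.00142), and COX4I1, the largest nuclear subunit and a point of ATP control, at 204, 245, 110 and 106 CPM (-1.05, SE 0.16, edgeR adjusted p 0.00371). For both, every 24 h library lay below every 48 h library. COX5A fell by 0.91, COX7B by 0.84, COX7C by 0.83, COX7A2L (a supercomplex factor) by 0.75, COX7A2 by 0.64 and NDUFA4 by 0.56. COX8A was the exception, rising from 36.9 and 62.8 to 93.7 and 96.3 CPM (0.98, SE 0.21, edgeR adjusted p 0.0123). COX5B, at 84.1, 105, 103 and 86.0 CPM, had 0.00, COX6A1 -0.57 (edgeR adjusted p 0.0987) and COX6B1 -0.25.

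In the ATP synthase 8 of 17 genes fell and 3 rose, and its parts differed. ATP5F1E, the small epsilon subunit of the central stalk, had the largest fall of any nuclear member, from 404 and 478 CPM to 132 and 134 (-1.72, SE 0.16, edgeR adjusted p 0.000729). ATP5PO, the peripheral stalk subunit also called OSCP, stood at 94.7, 159.8, 51.5 and 42.5 CPM (-1.39, SE 0.25, edgeR adjusted p 0.00607). Membrane and stalk subunits ATP5MG, ATP5ME, ATP5MJ and ATP5PF fell by 1.02, 1.00, 0.99 and 0.83. The catalytic head did not pass: ATP5F1A (488, 656, 553 and 440.1 CPM) had -0.20 and ATP5F1B (631, 711, 758 and 693 CPM) 0.11.

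The rises were in ATP5F1D, the delta subunit of the central stalk, and in c-subunit genes. ATP5F1D stood at 28.8, 35.2, 62.1 and 59.7 CPM (0.93, SE 0.18, edgeR adjusted p 0.00825). ATP5MC2 rose from 12.1 and 18.6 to 33.3 and 39.2 CPM (1.26, SE 0.21, edgeR adjusted p 0.00445) and ATP5MC1 by less (0.61, edgeR adjusted p 0.0426, not called by DESeq2 at 0.0742). ATP5MC3 had 0.45 (edgeR adjusted p 0.116). So the c-subunit paralogs all had positive values and 2 of 3 passed.

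Among mitochondrially encoded genes, the 3 that passed were the complex IV subunits. Their share of the 13, 23.1%, was near the 25.9% of all tested genes. MT-CO2 had the largest fall of any member, from 523 and 984 CPM to 134 and 191 (-2.17, SE 0.18, edgeR adjusted p 0.000490). MT-CO3 (-0.83, edgeR adjusted p 0.0271) and MT-CO1 (-0.57, edgeR adjusted p 0.0483) fell less. The other 10 ran from -0.58 for MT-ND1 (edgeR adjusted p 0.0618) to 0.50 for MT-ND4 (0.116). The remainder were MT-ND4L at -0.38, MT-ATP6 and MT-CYB each at -0.37, MT-ND6 at -0.31, MT-ND5 at -0.13, MT-ATP8 at -0.06, MT-ND2 at 0.04 and MT-ND3 at 0.05. The nuclear copy MTCO1P12 went from 748 and 776 counts at 48 h to 43 and 58 at 24 h, in libraries that are deeper, and shares 49.4% of the 50-base words of MT-CO1.

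**Figure D4:**
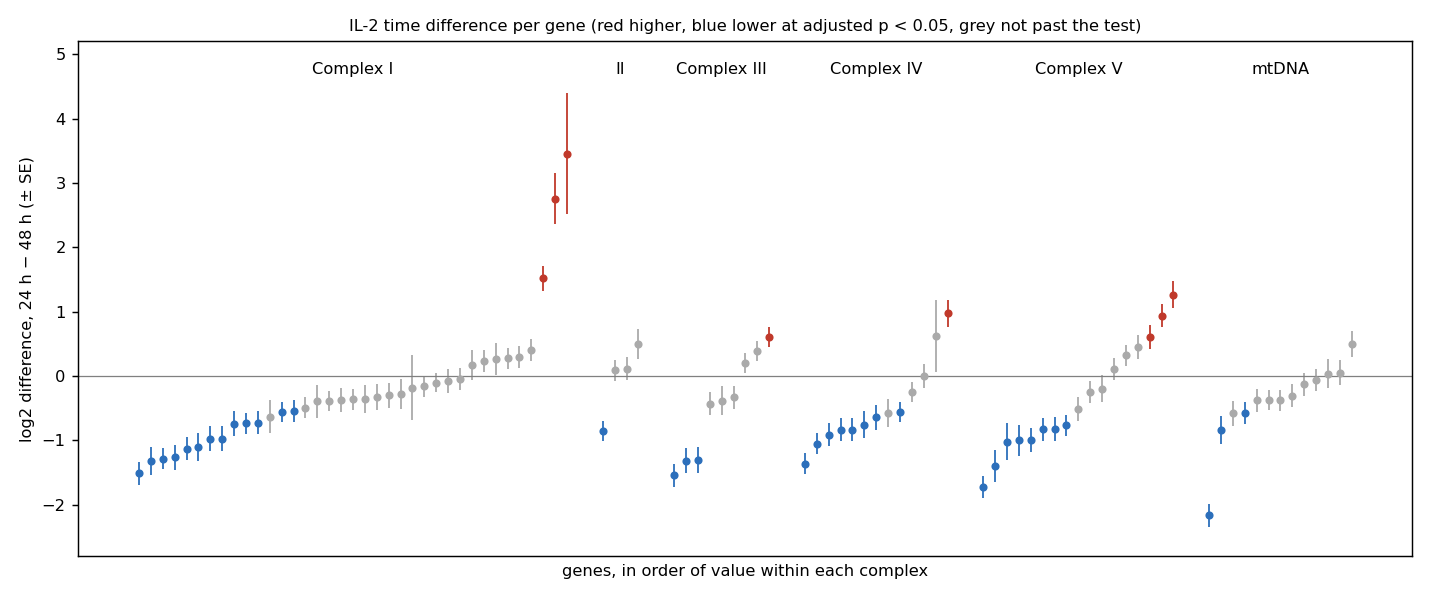
Log2 difference, 24 h minus 48 h of IL-2, with its SE for the 80 nuclear and 13 mitochondrially encoded members, grouped by complex and ordered by value (edgeR, 4 libraries). Blue points (36) are lower and red points (8) higher at adjusted p under 0.05; MT-CO2, at -2.17, is the lowest point.

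The direction of the time difference went with base composition. Nuclear members with a GC content of 55% or more in the longest annotated transcript numbered 19, of which 6 rose and 2 fell, with a median log2 difference of 0.30. Those under 50% numbered 50, of which 2 rose and 25 fell, with a median of -0.60. Between these bounds lay 11 genes, with 0 higher and 6 lower. Across the 80 genes, which share the same 4 libraries and are not independent, Pearson's r between GC content and the time difference was 0.489 and Spearman's rho 0.444. For log transcript length r was -0.12. The same bins and correlations were not computed over all tested genes, so the pattern is not shown to be particular to these members.

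With offsets for the trend of counts on length and GC content over all genes, 30 members fell and 7 rose. Over all 17492 tested genes, 1658 fell and 1763 rose with the offsets, where 1910 and 2625 did so without them. The nuclear median was -0.44, and 31 of the 44 called members stayed called. Of the 24 nuclear members with a positive value 11 became negative, and of the 56 with a negative value 7 became positive. Called members among them were CYC1 and ATP5F1D, which went to -0.51 and -0.12. UQCRC1 went to -0.55, NDUFV1 to -0.45, NDUFB10 to -0.23 and NDUFS1 to 0.40, and COX8A no longer passed (0.38, edgeR adjusted p 0.246). ATP5MC2 (48.3% GC) and ATP5MC1 (47.9%) were the genes that rose with a GC content under 50%. MT-CO1 and MT-CO3 also no longer passed, and the median of the mitochondrially encoded members was 0.015.

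**Figure D5:**
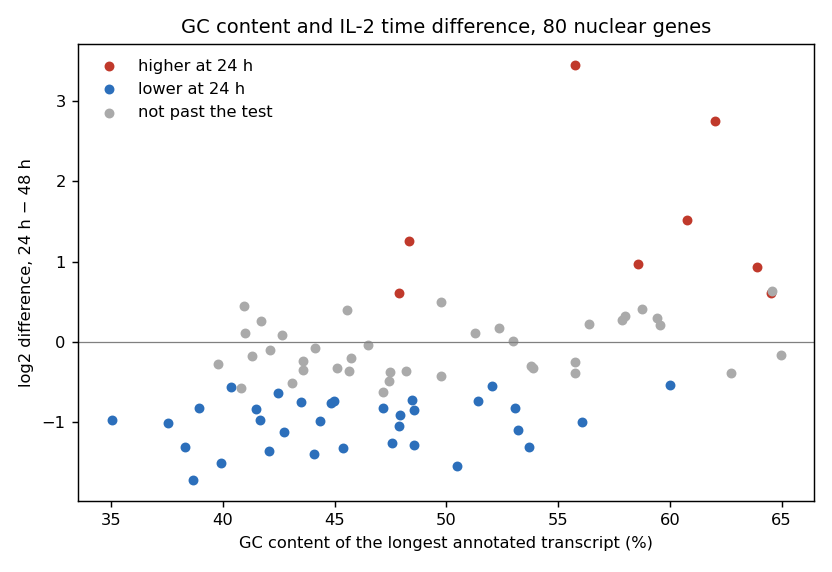
GC content of the longest annotated transcript (percent) against the log2 difference, 24 h minus 48 h, for the 80 nuclear members, coloured by the edgeR call. The 19 genes at 55% GC or more have a median of 0.30 and the 50 under 50% a median of -0.60.

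Genes that assemble, feed or regulate the complexes were counted from lists chosen by function, in the same fit. Shares of all tested genes called were 0.463% for line and 25.9% for IL-2 time (10.9% lower and 15% higher). For line, the only one called was UQCC1, a complex III assembly factor, at 138, 56.4, 136 and 65.6 CPM (1.17, SE 0.16, edgeR adjusted p 0.0345). The 40 nearest genes of UQCC1 on chromosome 20 had median log2 line ratios of 0.91 at 48 h and 0.70 at 24 h. IDH2, which makes mitochondrial NADPH, stood at 75.6, 196, 173 and 291 CPM and had the largest line value of the TCA cycle list (-1.06, edgeR adjusted p 0.0766).

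For IL-2 time, 5 of 16 complex I assembly factors fell and 0 rose (median -0.31, against 0.07 over all tested genes), among them NDUFAF5 (-0.83), NDUFAF8 (-0.83) and NDUFAF1 (-0.82). Complex II and III assembly had 2 of 10 lower, SDHAF4 (-1.16) and SDHAF3 (-0.75). Complex IV assembly had 4 of 25 lower and 2 higher, with the copper chaperone COX17 at -1.64, CMC1 at -1.23 and the translational activator of MT-CO1, TACO1, at 1.80. ATP synthase assembly and regulation had 1 of 7 in each direction: the inhibitor ATP5IF1 fell (-0.67) and ATPAF2 rose (1.58). Complex IV assembly (24%) and complex II and III assembly (20%) had shares called near or under that of all tested genes.

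Of the 25 genes measured for expression of the mitochondrial genome, 9 fell and 3 rose, a share of 48%. SUPV3L1, the helicase of mitochondrial RNA decay, fell by 1.53 and SLIRP, an RNA-stabilizing partner of LRPPRC, by 1.53, whereas FASTK rose by 1.88. Mobile carriers had 3 of 15 lower and 2 higher. Cytochrome c, CYCS, stood at 266, 554, 191 and 227 CPM (-0.88, edgeR adjusted p 0.0208), another gene with its highest value in WT at 48 h, and COQ8B rose by 1.13. Among the 11 regulators tested, ESRRA, the nuclear receptor that drives respiratory genes, rose from 18.1 and 25.1 to 82.2 and 86.6 CPM (1.98, edgeR adjusted p 0.000687) and SP1 rose by 0.82, while GABPB1 fell by 0.92 and MYC by 0.61. The TCA cycle had 3 of 18 lower and 2 higher, a share of 27.8% that is near that of all tested genes, with DLD at -0.93, IDH2 at 0.88 and IDH3G at 0.73.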

How the data were processed

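Total RNA of 4 NK-92 libraries was depleted of ribosomal RNA (RiboCop) and sequenced with CORALL V2 libraries, per the labels' protocols. The count table deposited by the authors holds whole-number read counts per Ensembl gene. The FPKM table deposited by the authors holds FPKM and, per the file headers, a transcript length used here only as deposited. Per the submitters' processing notes, the tools named were HISAT2 2.2.0, SAMtools 1.15.1 and featureCounts 2.0.1 and the genome build was hg38. The sources used here give no annotation, strand setting or treatment of multi-mapping reads, so overlapping or antisense loci such as NDUFA6-DT are uncertain. There were 0 other per-sample columns.

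Counts were fitted with edgeR 4.0.16 in R 4.3.3 (quasi-likelihood F test, TMM, filterByExpr with a minimum count of 10, 17492 genes) with terms for line and IL-2 time. Tests were two-sided, with Benjamini-Hochberg adjustment over all tested genes. An SE is the log2 difference divided by the square root of F. Ratios between single libraries used a prior count of 2 on the log2 scale. DESeq2 1.42.0, limma 3.58.1 on log2(FPKM + 1) and log2(FPKM + 0.1), other normalizations, filters, thinning, offsets (mgcv 1.9.3) and left-out libraries were alternatives. Replicate 1 of each line is its 48 h library and replicate 2 its 24 h library. On simulated counts with 17492 genes, the line test recovered 63 of 100 genes changed by 1 on the log2 scale and 98 of 100 changed by 2, with 7 false calls. The time test recovered 54 and 90 of 100, with 5 false calls. The simulation gave every gene a dispersion of 0.02 and no line effect that depended on time. These rates therefore need not hold for the real libraries.

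Positions came from GENCODE release 29 on GRCh38 and promoters from RefSeq (GRCh38.p14). The members, lists and rule for naming genes were chosen with earlier results of these data known. The rule took, per complex and comparison, up to 8 members past the test and the extremes, the highest and lowest levels, core subunits, isoform pairs, all mitochondrially encoded members, and up to 3 genes per pathway list. NDUFA9, NDUFB4, NDUFB5, NDUFB10, NDUFV2, ATP5PD and MYC lie outside it and were named after their values were seen. Many members are counted but not reported by name here, among them a core subunit that the rule took.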

Additional observations from a re-analysis of the deposited data

Results flagged for a closer look

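For 6 nuclear members the line ratio pointed in opposite directions at 48 h and 24 h, with both counting intervals off 1 and both log2 ratios at least 0.25 in size. The log2 gap between the times was 1.03 for ATP5PO (ratios of 0.593 and 1.21), 0.961 for ATP5ME (0.658 and 1.28), 0.955 for NDUFB5 (0.661 and 1.28), 0.757 for ATP5F1A (0.743 and 1.26), 0.59 for SDHA (0.813 and 1.23) and 0.578 for COX5B (0.803 and 1.20). All 6 were lower in ΔOGT-ISS at 48 h and higher at 24 h, the direction of the nuclear medians (-0.36 and 0.04). The share of all tested genes that meets these criteria was not counted, so the 6 are not shown to be unusual.

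For 3 members the change with IL-2 time was opposite in the lines by the same criteria. COX5B differed by 0.578, with a ratio of 24 h to 48 h of 0.821 in WT and 1.23 in ΔOGT-ISS. This is the same gap as its line gap above and not a separate result. The share of all tested genes was not counted here either. MT-ND2 differed by 0.88, with 1.39 in WT and 0.758 in ΔOGT-ISS, and MT-ND3 by 0.645, with 0.829 in WT and 1.30 in ΔOGT-ISS. Each value rests on 1 library per line and time, the intervals cover counting error only, and the difference was not tested.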

How the results depend on the processing

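With 4 libraries, other normalizations, thinning and limma left the counts of called members within 1.5 times their reported values, except that DESeq2 size factors called 1 member lower for line. Members lower in ΔOGT-ISS numbered 3 with DESeq2, 3 with length and GC offsets and 4 with no filter on low counts. Over all genes, these settings called 213 of 17492, 371 of 17492 and 378 of 43630 lower. DESeq2 size factors called 105 of 17492 lower, and the reported fit called 55. For IL-2 time, members higher at 24 h numbered 13 with no filter, 5 with DESeq2 and 5 without the line term, and members lower 23 without the line term. All genes higher numbered 3714 of 43630, 2082 of 17492 and 1875 of 17492 in these fits. All genes lower without the line term numbered 1405 of 17492. The median of the mitochondrially encoded members for time was -0.16 with no filter, 0.015 with the offsets and -0.13 without the 6 that share over 20% of their 50-base words (chosen after seeing the data), which also gave 0.21 for line. With the offsets 22 members changed sign, of which 3 had an unadjusted p under 0.05: ATP5F1D (-0.12), CYC1 (-0.51) and NDUFB10 (-0.23). Leaving out each library in turn, in fits of 3 libraries without the other factor, gave nuclear line medians from -0.47 (without WT 24 h) to 0.067 (without WT 48 h) and mitochondrial ones from -0.11 to 0.12, positive without WT 48 h (0.04) and without ΔOGT-ISS 24 h. Of the 11 members with an unadjusted p under 0.05 for line, 10 moved over 1.5 times: ATP5MJ ranged from -1.08 to 0.10 and MT-CO2 from -2.14 to 0.71, both positive only without WT 48 h, COX5A from -1.28 to -0.16, MT-CO3 from -1.18 to -0.04, NDUFA4 from -0.97 to -0.41, NDUFB2 from -0.92 to -0.14, MT-ND1 from 0.086 to 0.94, MT-ND2 from 0.27 to 0.82, MT-ND5 from 0.24 to 0.56 and MT-ND6 from 0.23 to 0.75. For time, members higher ranged from 2 to 6, members lower from 6 to 35 and the mitochondrial median from -0.36 to -0.16, and the nuclear median ranged from -0.65 (without ΔOGT-ISS 48 h) to -0.10 (without WT 48 h). These fits mix line with time, and the cause of the other changes was not tested. The IL-2 time term already pairs the lines within each time, and the labels give no other pairing. Depth limits NDUFA7, NDUFA13, NDUFV2 and NDUFA4L2, which have few counts.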
